A study of Mus musculus with 88 samples.

Results

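The proteome of unstimulated mouse dendritic cells was measured at 0 h after digestion with 3 proteases, in 6 of the 88 samples of the study. The mice were female C57BL/6J, and cells from their marrow were differentiated with GM-CSF, pooled and taken without stimulation. The age of the mice was not used here. The 2 AspN and the 2 LysN samples were unlabelled baseline cells. The 2 trypsin samples were the medium-heavy (M) channel at time 0 of runs that mixed M-labelled cells (Arg6 and Lys4) with an unlabelled (L) mix, in a study of LPS responses by pulsed SILAC in which heavy (H) amino acids were added at 0 h. GM-CSF cultures of bone marrow are known to hold more than 1 myeloid cell type, and all cells of a culture entered the lysate. In such bulk samples, more cells of a type and more of a protein per cell cannot be told apart.

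A digest decides which pieces of a protein the mass spectrometer can see. Trypsin cuts after lysine and arginine, LysN before lysine and AspN before aspartate, so a protein poor in one of these residues yields few usable peptides in that digest. The deposited iBAQ value is the summed peptide intensity of a protein group divided by the number of peptides that the protein could give, called possible peptides here, and it is meant as a measure of molar amount. Each value is given as a share, the percent of the iBAQ sum of its run. Proteins were matched between digests by the first accession of their group.

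A run gave a value for 3425 to 3508 protein groups with AspN, 3628 to 3760 with LysN and 4885 to 4948 with trypsin. The peptides behind them numbered 16347 to 16896, 18763 to 19918 and 34457 to 38207, the last over the L, M and H channels together, so the trypsin table was the deepest and the median protein rested on 3 to 4 peptides a run. A value in all 6 runs was present for 2220 groups, which held 83.7% to 87.4% of the iBAQ sum of a run and were the proteins tested. Over these, the 2 runs of a digest correlated with Pearson r from 0.948 to 0.958, and runs of different digests from 0.817 to 0.856. These correlations are descriptions across proteins, which are not independent replicates. The H signal in the trypsin runs at 0 h, the time at which H amino acids were added, was 8.52% and 8.44% of the M sum, with a median per protein of 15.8% and 15.5%, and its source was not tested.

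Markers of myeloid cells were among the abundant proteins in every digest. The 3 proteins S100a8, S100a9 and Lyz2 together held 8.58% and 8.84% of the AspN runs, 5.36% and 4.28% of the LysN runs, and 5.87% and 5.32% of the trypsin runs. Of 12 dendritic cell markers, 6 had a value in both AspN runs, 6 in both LysN runs and 7 in both trypsin runs, with summed shares of 0.185% to 0.228%, 0.191% to 0.208% and 0.0440% to 0.0613%. Itgax (CD11c), Cd74, H2-Aa, H2-Ab1 and H2-Eb1 were among those found, and Flt3, Batf3 and Ccr7 had no value in any run. Part of the markers of the labelled cell type were thus present, at low level. Of 14 granulocyte markers 10 had a value with AspN, 10 with LysN and 13 with trypsin, and of 10 macrophage markers 8, 8 and 9. S100a8 and S100a9 made up nearly the whole granulocyte sum, while Mpo and Elane, of the primary granules, were at 0.00136% or lower in every run. Lyz2 and Lgals3 made up most of the macrophage sum. Csf1r was at 0.00377% or lower in every run, and Adgre1 had a value in a single trypsin run. Of 10 erythroid markers 8 had no value in any run. No stromal marker of 6 had a value in any run, the 5 platelet markers summed to at most 0.00695%, and of 10 lymphocyte markers 1 had a value, Lck in a single trypsin run. The part of granulocytes and macrophages in the levels below was not tested.

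The resting proteome was concentrated in few proteins. The 10 most abundant proteins of a run held 17.9% to 25.2% of its iBAQ sum, and 50% of the sum was held by 68 and 72 proteins with AspN, 82 and 82 with LysN, and 53 and 47 with trypsin. By summed intensity, which does not divide by possible peptides, those numbers were 86 and 86, 91 and 91, and 64 and 60. The leading functions were actin and its binders, S100 proteins and annexins, the cytosolic ribosome and glycolysis.

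Thymosin beta 4 (Tmsb4x), a small protein that holds actin monomers, had the highest mean share over the digests when groups were matched by first accession, at 3.72%. With linked groups summed and marked mouse groups kept, actin led at 4.14% and Tmsb4x followed at 3.62%. Matched by first accession, Tmsb4x took 5.52% and 3.15% of the AspN runs, 3.23% and 3.70% of the LysN runs and 2.85% and 3.86% of the trypsin runs. The groups overlapped and no pair of digests differed beyond the replicate spread (adjusted p = 0.365 to 0.874, limma). The next was S100a9, which with S100a8 forms calprotectin, a calcium and metal binding dimer of myeloid cells. Its shares were 4.48% and 4.19%, 2.44% and 1.61%, and 3.84% and 3.54% in the same order. LysN was lowest, with a log2 difference from AspN of -1.13 ± 0.19 (SE, adjusted p = 0.00707), and trypsin was higher than LysN by 0.89 (adjusted p = 0.0101).

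S100a8 was lower with LysN than AspN, as its partner was, and lower again with trypsin, where its partner was higher than with LysN. Its shares were 3.19% and 3.62% with AspN, 1.72% and 1.48% with LysN and 0.831% and 0.895% with trypsin, and the 3 pairs of runs did not overlap. Trypsin was lower than AspN, with a log2 difference of -1.98 ± 0.13 (SE, adjusted p = 0.000151), and lower than LysN, with a difference of -0.89 (adjusted p = 0.00268). By summed intensity the second of these differences was 0.03 in the other direction. The ratio of S100a8 to S100a9 was 0.713 and 0.863 with AspN, 0.703 and 0.920 with LysN, and 0.217 and 0.253 with trypsin. By iBAQ the pair thus stood nearer to equal amounts with AspN and LysN than with trypsin. These ratios rested on few possible peptides, 2 for S100a9 with AspN and 2 for S100a8 with LysN. With trypsin S100a9 had 7 and S100a8 had 5. By summed intensity S100a9 was higher with trypsin than AspN by 0.83 on the log2 scale.

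Several other abundant proteins had no difference by iBAQ that passed the test. Lysozyme (Lyz2), which cuts bacterial cell walls, took 0.907% and 1.03%, 1.20% and 1.19%, and 1.20% and 0.886% of the AspN, LysN and trypsin runs (adjusted p = 0.211 to 0.690). The peroxide-reducing enzyme Prdx1 lay between 0.823% and 0.985% in the 6 runs (adjusted p = 0.312 to 0.808). Cofilin (Cfl1), which severs actin filaments, lay between 0.704% and 1.06% and differed between trypsin and LysN alone (log2 0.43, adjusted p = 0.0366), a difference lost in 8 of 17 other settings. The lysosomal protease Ctsd held 0.501% to 0.687% (adjusted p = 0.165 to 0.889). By other measures these levels parted: by summed intensity the log2 difference between LysN and AspN was -1.03 for Lyz2, -0.53 for Prdx1 and -0.59 for Ctsd. With runs centred on their medians trypsin minus LysN was 0.52 for Lyz2, 0.69 for Prdx1 and 0.70 for Ctsd. The peptidyl-prolyl isomerase Ppia lay between 1.09% and 2.08% and was higher with trypsin than LysN (log2 0.77, adjusted p = 0.0359, lost in 5 of 16 other settings). Gapdh, of glycolysis, was lower with LysN, at 1.26% and 1.25%, than with AspN, at 2.36% and 2.14% (log2 difference -0.84 ± 0.11 SE, adjusted p = 0.00270), or with trypsin, at 2.01% and 1.94%. Vimentin (Vim), an intermediate filament protein, was higher with LysN, at 1.12% and 1.39%, than with AspN, at 0.712% and 0.762% (log2 0.76, adjusted p = 0.0105, lost in 5 of 17 other settings). Fabp5, a fatty acid carrier, was higher with trypsin, at 1.26% and 1.41%, than with AspN, at 0.590% and 0.704% (log2 1.05, adjusted p = 0.00177).

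**Figure D1:**
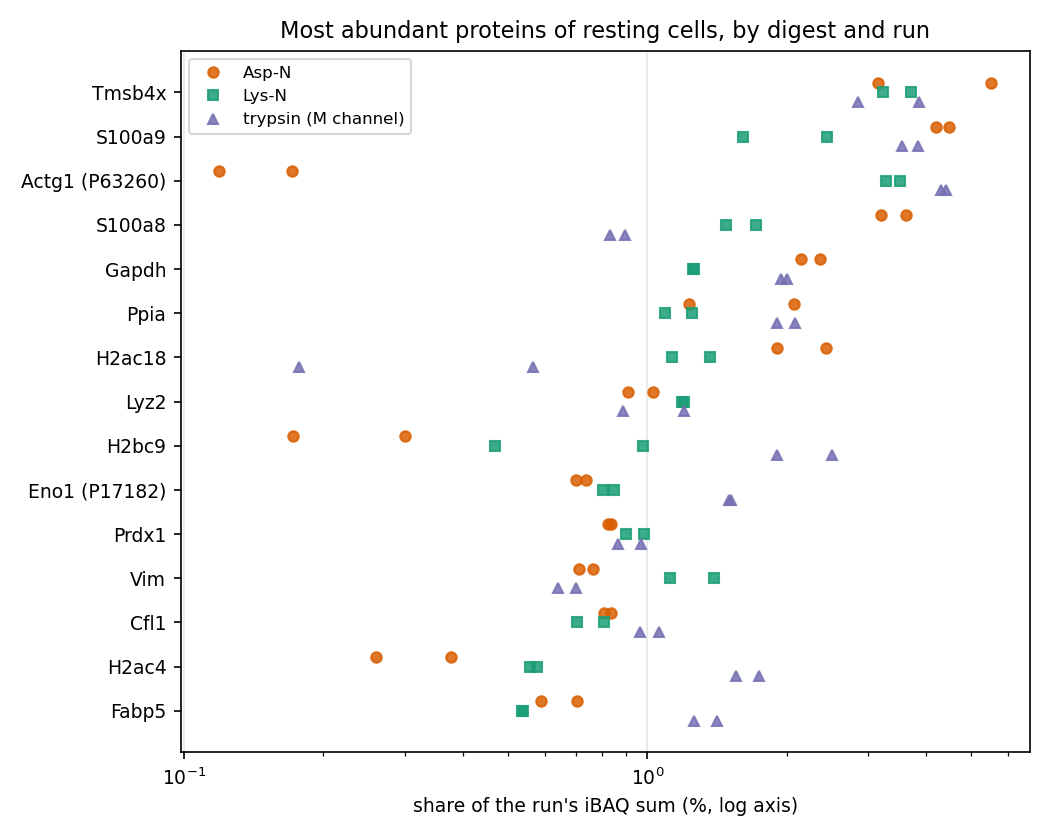
Share of the run's iBAQ sum (percent, log axis) of the 15 proteins of highest mean share among those with a value in all 6 runs, each point 1 run. Tmsb4x, Lyz2 and Prdx1 lie close together over the 3 digests, while S100a8 falls from AspN to trypsin, and Actg1, H2bc9 and H2ac4 are lowest with AspN.

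Actin, the filament protein of the cell cortex, changed rank with grouping and with the contaminant mark. The group led by Actg1 took 3.50% and 3.27% of the LysN runs and 4.40% and 4.31% of the trypsin runs, but 0.119% and 0.171% of the AspN runs, where it ranked 137 against 2 and 1. In the AspN table a further group, led by Actb among its mouse accessions, was marked as a contaminant and dropped, and it equalled 4.68% ± 0.43 (SD, n = 2) of the kept sum. With such marked groups kept where they list a mouse accession, all actins together held 5.08% ± 0.52, 3.67% ± 0.18 and 4.60% ± 0.02 with AspN, LysN and trypsin. The same mark removed Tmsb10 with LysN, where its group equalled 0.897%, and Pfn1 (profilin), which equalled 0.376% with AspN and 0.568% with LysN against 1.14% and 1.15% of the trypsin runs, where it was not marked.

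Glycolysis stood higher in the trypsin runs. Its summed share was 6.57% and 6.43% with AspN, 4.78% and 4.79% with LysN and 8.12% and 8.23% with trypsin. Of 14 tested members, 9 were higher and 2 lower with trypsin than with AspN, and 8 higher and 2 lower than with LysN, with median log2 differences of 0.56 and 0.54. Over all 2220 proteins, 11.3% were higher with trypsin than AspN and 23.9% lower, with a median of -0.35, and 8.29% were higher and 30.0% lower than with LysN, with a median of -0.61. The count of higher members was 9 and 9 with each run centred on its median. Eno1 (enolase) took 0.702% and 0.738%, 0.804% and 0.847%, and 1.50% and 1.52% in the AspN, LysN and trypsin runs, and differed between trypsin and AspN by 1.07 ± 0.11 (SE) on the log2 scale (adjusted p = 0.000771). Pgk1, Tpi1, Pgam1, Pkm and Ldha were also higher with trypsin than with AspN, by 0.51 to 0.81 (adjusted p = 0.00609 to 0.0202).

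The lists of tricarboxylic acid cycle enzymes and of mitochondrial chaperones also had their highest summed shares with trypsin. The list of the tricarboxylic acid cycle, which oxidises acetyl groups in the matrix, also held the cytosolic enzymes Idh1 and Mdh1. It summed to 0.464% and 0.758% with AspN, 0.543% and 0.764% with LysN and 0.995% and 0.971% with trypsin. Of its 20 tested members 7 were higher and 2 lower with trypsin than with AspN, beside 11.3% higher and 23.9% lower over all proteins. Its median log2 difference was 0.73, beside -0.35 over all proteins. Its 3 members of highest share, Mdh2, Idh1 and Mdh1, did not pass in that comparison (adjusted p = 0.0681, 0.0547 and 0.0848, limma). Its AspN and LysN runs differed among themselves, and no direction is given between those 2 digests. Mitochondrial chaperones summed to 0.240% and 0.366%, 0.150% and 0.193%, and 0.469% and 0.426%. Of 6 tested members 4 were higher with trypsin than AspN and none lower, beside the same 11.3% and 23.9% over all proteins. Hspe1 and Hspd1, which form 1 folding machine, were higher with trypsin than LysN by 1.72 and 1.62 on the log2 scale (adjusted p = 0.00245 and 0.00536). Neither passed between trypsin and AspN, with log2 differences of 0.37 and 0.63 (adjusted p = 0.283 and 0.130, limma). Their ratio was 2.46 ± 0.28 (SD, n = 2) with AspN, 1.96 ± 0.51 with LysN and 2.05 ± 0.08 with trypsin, so the pair moved together.

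Respiratory chain and ATP synthase subunits summed to nearly the same share in the 3 digests (1.83% and 2.08%, 1.69% and 1.79%, 1.93% and 1.93%) while single subunits went apart. Of 38 tested, 10 were higher and 6 lower with trypsin than AspN, with a median log2 difference of -0.40. Over all proteins 11.3% were higher and 23.9% lower in that comparison, with a median of -0.35. With LysN against AspN 6 were higher and 10 lower, beside 17.3% higher and 9.64% lower over all proteins. Atp5b, the catalytic subunit of ATP synthase, was higher with trypsin than AspN (log2 0.97, adjusted p = 0.0229), and Cox6a1, a small subunit of cytochrome c oxidase, fell by 3.16 (adjusted p = 0.00160). Atp5e, a subunit of 52 residues, took 0.224% and 0.226% with AspN, 0.0275% and 0.0336% with LysN and 0.109% and 0.149% with trypsin. The subunits thus ranked in different orders by digest.

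Antigen presentation by MHC class II, a defining task of dendritic cells, had the largest ratio between digests among the lists in the plot of summed shares, 5.42 times between AspN and trypsin. Its proteins, which load peptides from swallowed material onto surface molecules, summed to 0.941% and 0.994% with AspN, 0.789% and 0.705% with LysN and 0.189% and 0.168% with trypsin. A large part of the ratio rested on 1 member, Ifi30. It held 0.520% of the mean AspN sum of 0.968%, and 0.0232% of the mean trypsin sum of 0.179%. Of 6 tested members 5 were lower with trypsin than AspN and none higher, beside 23.9% lower and 11.3% higher over all proteins. The median log2 difference was -3.17, beside -0.35 over all proteins. Against LysN 4 were lower and none higher, beside 30.0% lower and 8.29% higher over all proteins. Centred on the run medians, 5 were lower and 1 higher against AspN, and 3 lower and 1 higher against LysN.

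Ifi30, the thiol reductase that unfolds antigens in the lysosome, had the highest share of the class II list with AspN, while Ctss had the highest with LysN and trypsin. Ifi30 took 0.525% and 0.516% of the AspN runs, 0.241% and 0.189% of the LysN runs and 0.0221% and 0.0242% of the trypsin runs. Trypsin was lower than AspN, with a log2 difference of -4.49 ± 0.18 (SE, adjusted p = 1.21e-05), and the rank of the protein went from 29 to 512. H2-Aa, a chain of the class II molecule itself, had shares of 0.0286% and 0.0546%, 0.135% and 0.131%, and 0.00334% and 0.00227%, highest with LysN. Its partner chain H2-Ab1 had 0.0169% and 0.0292% with AspN, 0.00870% and 0.00137% with LysN and 0.0326% and 0.0215% with trypsin, so it was not lowest with trypsin. H2-Ab1 was not tested, since its group was led by another accession with LysN. The ratio of H2-Aa to H2-Ab1 was 1.69 and 1.87 with AspN, 15.5 and 95.6 with LysN, and 0.103 and 0.105 with trypsin. The invariant chain Cd74, which fills the groove until loading, had 0.104% and 0.114%, 0.0512% and 0.0434%, and 0.0228% and 0.0162%, and was lower with trypsin than AspN (log2 -2.50, adjusted p = 0.000450). By summed intensity its difference between LysN and AspN was 0.63 higher with LysN, the reverse of iBAQ. Ctss, which trims the invariant chain, was lower with trypsin than AspN (log2 -1.72, adjusted p = 0.000395), and the asparagine protease Lgmn did not pass the test in any pair (adjusted p = 0.0657 to 0.328).

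The class I pathway, which presents peptides made inside the cell, summed to 1.11% and 1.24% with AspN, 0.925% and 0.882% with LysN and 0.623% and 0.624% with trypsin. Of 11 tested members 5 were lower and 1 higher with trypsin than AspN, and 4 were lower and 2 higher with LysN than AspN. Over all proteins 23.9% were lower and 11.3% higher in the first comparison, and 9.64% lower and 17.3% higher in the second. B2m, the light chain of class I, held 0.168% and 0.255% with AspN, 0.0372% and 0.0598% with LysN and 0.0295% and 0.0264% with trypsin. Psmb8, a catalytic subunit of the immunoproteasome, held 0.0468% and 0.0589%, 0.00706% and 0.00499%, and 0.00745% and 0.00538%. Both stood apart in AspN and not between LysN and trypsin (adjusted p = 0.0784 and 0.836).

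**Figure D2:**
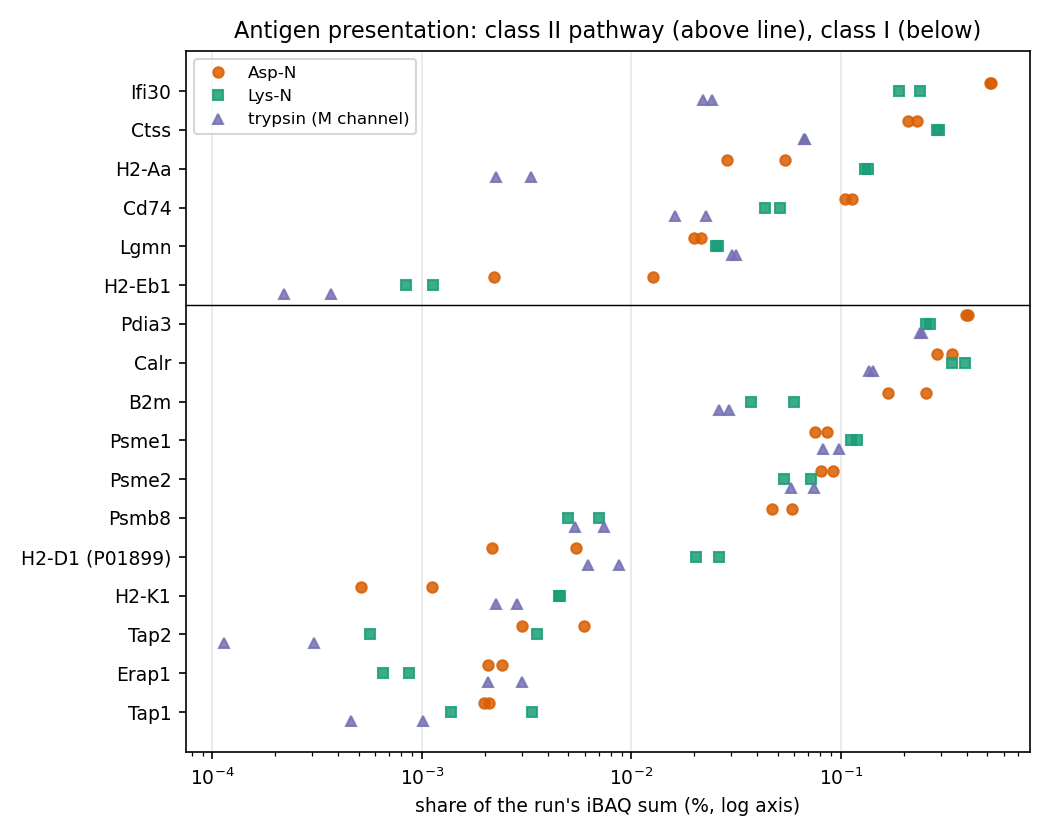
Share of the run's iBAQ sum (percent, log axis) of the tested members of the MHC class II pathway (above the line) and the class I pathway (below it), each point 1 run. Ifi30, Ctss, H2-Aa, Cd74 and H2-Eb1 are lowest in the trypsin runs, and Lgmn is not.

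Surface receptors and proteins of the endoplasmic reticulum (ER) were read against all proteins, of which 23.9% were lower and 11.3% higher with trypsin than AspN, and 30.0% lower and 8.29% higher than with LysN. Of 13 tested phagocyte receptors and integrins, 7 were lower and 1 higher with trypsin than AspN, and 6 were lower and none higher than with LysN. The median log2 difference from AspN was -1.37, beside -0.35 over all proteins. That from LysN was -0.27, beside -0.61 over all proteins, and 0.47 with runs centred on their medians. The lipid scavenger receptor Cd36 held 0.0394% and 0.0455% with AspN, 0.0381% and 0.0391% with LysN and 0.00303% and 0.00209% with trypsin, lower than AspN with a log2 difference of -4.07 ± 0.27 (SE, adjusted p = 0.000151). The log2 difference from AspN was -5.19 for the tetraspanin Cd9 and -3.16 for the integrin Itgax (adjusted p = 0.000151 and 0.000575). The integrin chain Itgb2 differed in no pair (adjusted p = 0.429 to 0.951). Of 20 ER chaperones, 8 were lower and 1 higher with trypsin than AspN, and their median log2 difference of -0.45 lay close to that over all proteins. Among them Ppib, a prolyl isomerase, held 0.201% and 0.225%, 0.0861% and 0.108%, and 0.0161% and 0.0244%, and trypsin differed from AspN by -3.42 (adjusted p = 0.000190). The membrane lectin Canx differed by -2.38 (adjusted p = 0.000578) and its soluble relative Calr by -1.16 (adjusted p = 0.00189).

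Lysosomal hydrolases, by contrast, summed to 3.29% and 3.63%, 3.79% and 3.92%, and 3.17% and 2.93%, a small spread beside that of the class II list. Of 31 tested members 5 were higher and 10 lower with trypsin than AspN, with a median log2 difference of -0.37. Over all proteins 11.3% were higher and 23.9% lower, with a median of -0.35, so the list lay close to them. With the runs centred on their medians the counts were 6 and 5, beside 373 and 346 of all 2220. The balance within this list thus depended on the scaling, as it did over all proteins. Tpp1, a tripeptidyl peptidase, was higher with LysN than AspN by 1.88 (adjusted p = 0.00172).

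Ribosomal proteins took 6.13% and 5.83% with AspN, 9.28% and 8.18% with LysN and 6.89% and 6.54% with trypsin. These sums ran over unlike sets, with 55, 78 and 73 genes that had a value in both runs. As a percent of the sum of the tested proteins alone, the means were 6.04%, 7.67% and 5.32%. Of 49 tested, 14 were higher and 8 lower with LysN than AspN, beside 17.3% higher and 9.64% lower over all proteins. Once the runs were centred on their medians 11 were higher and 17 lower, beside 207 and 329 of all 2220. No direction is given for the list. Rps28, a protein of the small subunit with 69 residues, was the most abundant small-subunit protein with AspN and with LysN. It took 0.653% and 0.540%, 1.30% and 1.02%, and 0.0725% and 0.0957% of the AspN, LysN and trypsin runs, and its rank went from 26 and 10 to 201. Trypsin was lower than LysN, with a log2 difference of -3.79 ± 0.20 (SE, adjusted p = 0.000137). Rplp1 and Rplp2, the acidic pair of the ribosomal stalk, were both higher with LysN than AspN, by 6.12 and 0.59 on the log2 scale. Between trypsin and AspN they went opposite ways, by 5.00 and -1.40. Rplp1 held 0.00253% and 0.00794% with AspN, 0.343% and 0.282% with LysN and 0.121% and 0.170% with trypsin, while Rplp2 held 0.290% and 0.321%, 0.520% and 0.406%, and 0.114% and 0.118%.

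Core histones summed to 3.98% and 4.85%, 2.51% and 3.03%, and 2.51% and 2.91%. Their variants are near copies of each other, and the groups that carried them differed between tables, so single variants are uncertain. H2bc14 had 0.369% and 0.579% with AspN and at most 0.00470% elsewhere, while H2bc9 had 0.299% and 0.172% with AspN and 2.51% and 1.91% with trypsin. All H2B groups together held 1.05% ± 0.02 (SD, n = 2), 1.84% ± 0.68 and 2.20% ± 0.43, and all H2A groups 3.46% ± 0.51, 2.57% ± 0.35 and 2.18% ± 0.42. The chromatin proteins Hmgb1 and Hmgb2, which bend DNA, were higher with trypsin than AspN by 1.73 and 1.61 on the log2 scale (adjusted p = 0.00123 and 0.00220). They were the 2 called of 5 tested linker histones and HMG proteins, whose median log2 difference was 0.10. Over all proteins 11.3% were higher and 23.9% lower, with a median of -0.35. Hmga1 differed by -0.66 and did not pass (adjusted p = 0.181, limma).

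**Figure D3:**
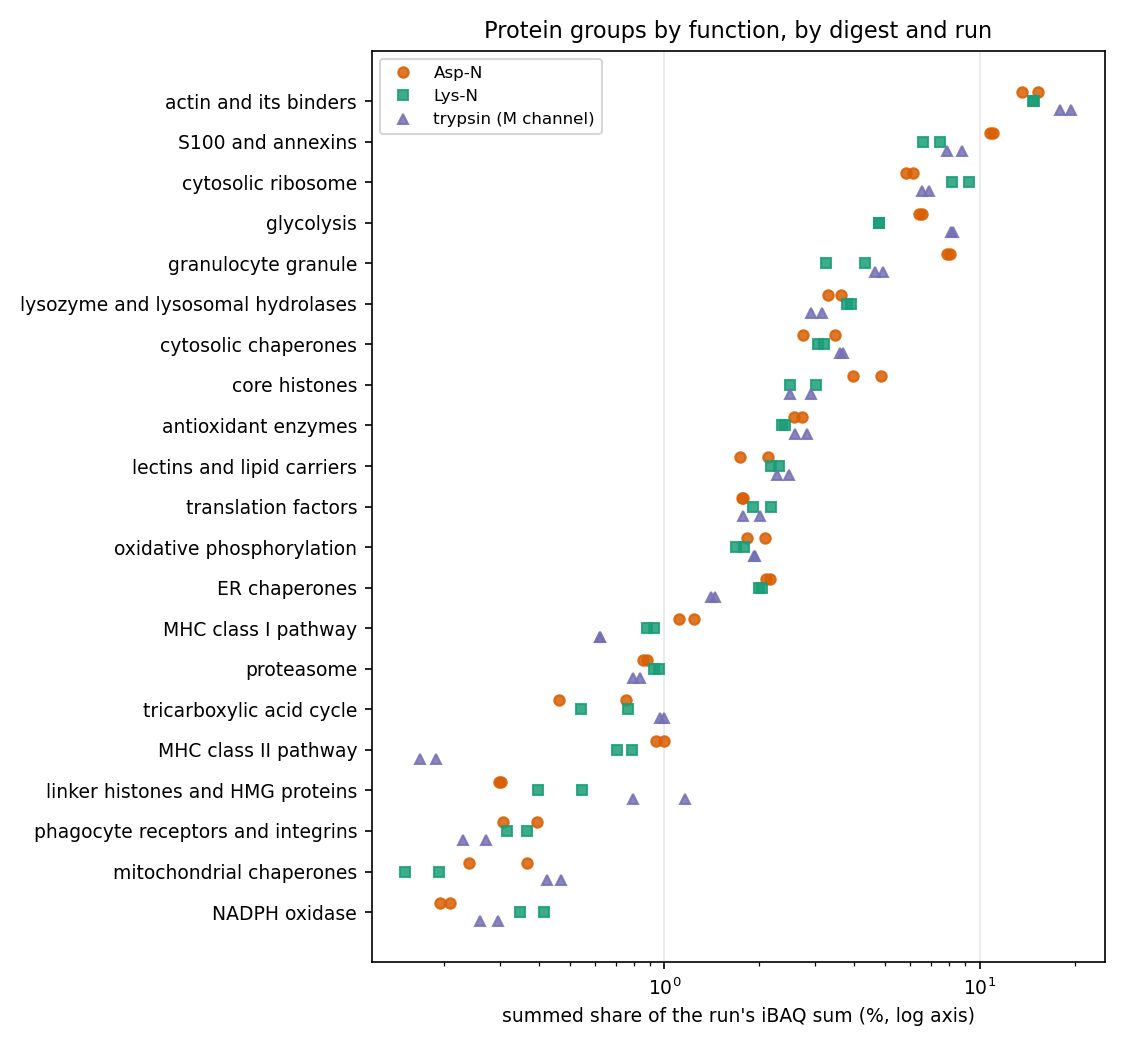
Summed share of the run's iBAQ sum (percent, log axis) of groups of proteins by function, each point 1 run. Actin and its binders are highest in every run, glycolysis and the mitochondrial chaperones are highest with trypsin, and the MHC class II pathway is lowest with trypsin.

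Among S100 proteins and annexins, 6 of 15 tested were lower and 2 higher with trypsin than AspN, and 3 and 3 with runs centred on their medians. Over all proteins 23.9% were lower and 11.3% higher, and the median log2 difference of the list, -0.16, was above the -0.35 of all proteins. S100a6 held 0.195% and 0.186% with AspN, 0.0459% and 0.0496% with LysN and 0.0159% and 0.0180% with trypsin, in the same order of digests as S100a8. S100a10 went the other way between AspN and LysN, from 0.193% and 0.228% to 0.485% and 0.468% (log2 1.18, adjusted p = 0.00323), and S100a11 differed in no pair (adjusted p = 0.773 to 0.938). Annexin A5 (Anxa5), a calcium-dependent membrane binder, held 0.210% and 0.167%, 0.232% and 0.253%, and 0.0300% and 0.0361%, and was lower with trypsin than AspN (log2 -2.51, adjusted p = 0.000243).

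The 14-3-3 adaptor Ywhaz, which binds phosphorylated proteins, held 0.118% and 0.132% with AspN, 0.495% and 0.474% with LysN, and 0.664% and 0.722% with trypsin, and ranked 166, 37 and 21. Among antioxidant enzymes thioredoxin (Txn1) was highest with AspN, at 0.533% and 0.674% against 0.137% and 0.155% with LysN. Sod1 was highest with LysN, at 0.186% and 0.188% against 0.0846% and 0.0809% with AspN. Of the granulocyte granule list, with 6 tested members, Chil3 was lower with LysN than AspN (log2 -1.01, adjusted p = 0.00867), Ngp was higher by 0.97 (adjusted p = 0.0285, a call lost in 6 of 16 other settings), and lactoferrin (Ltf) was lower with trypsin than AspN (log2 -1.55, adjusted p = 0.00289).

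In several stable complexes each subunit is present in about equal number, so the levels of their subunits can be set side by side within a digest. Groups that shared an accession or gene name were summed here, with marked mouse groups kept. The spread is the SD of the log2 share among subunits. For the 8 subunits of the CCT chaperonin, which folds actin and tubulin, it was 0.41 with AspN, 0.42 with LysN and 0.14 with trypsin, and the highest subunit exceeded the lowest by 2.47, 2.47 and 1.31 times. For the 7 subunits of the Arp2/3 complex, which branches actin filaments, it was 2.63, 1.14 and 0.37. For 12 subunits of the 20S proteasome core it was 0.88, 1.86 and 0.80. Over all 2473 such proteins it was 2.77, 2.64 and 2.97. Trypsin did not give the narrowest spread everywhere: for 12 subunits of eIF3 it was 1.19, 1.24 and 1.67, and for 7 of coatomer 1.37, 0.65 and 0.88.

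Single subunits stood far below the rest of their complex. Arpc4 was the lowest Arp2/3 subunit with AspN, at 0.00131% and 0.00196%, and with LysN, at 0.0163% and 0.0448%, against 0.106% and 0.121% with trypsin, a rise of 6.14 ± 0.47 (SE) on the log2 scale from AspN to trypsin (adjusted p = 0.000245). Psmb2, of the proteasome core, was lowest with LysN, at 0.000904% and 0.00218%, against 0.0336% and 0.0465% with AspN and 0.0366% and 0.0379% with trypsin. Psmb4 was the highest core subunit with LysN and the lowest with AspN, and LysN was higher than AspN by 3.61 (adjusted p = 0.000289). It had 1 possible peptide with LysN and 8 with AspN.

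**Figure D4:**
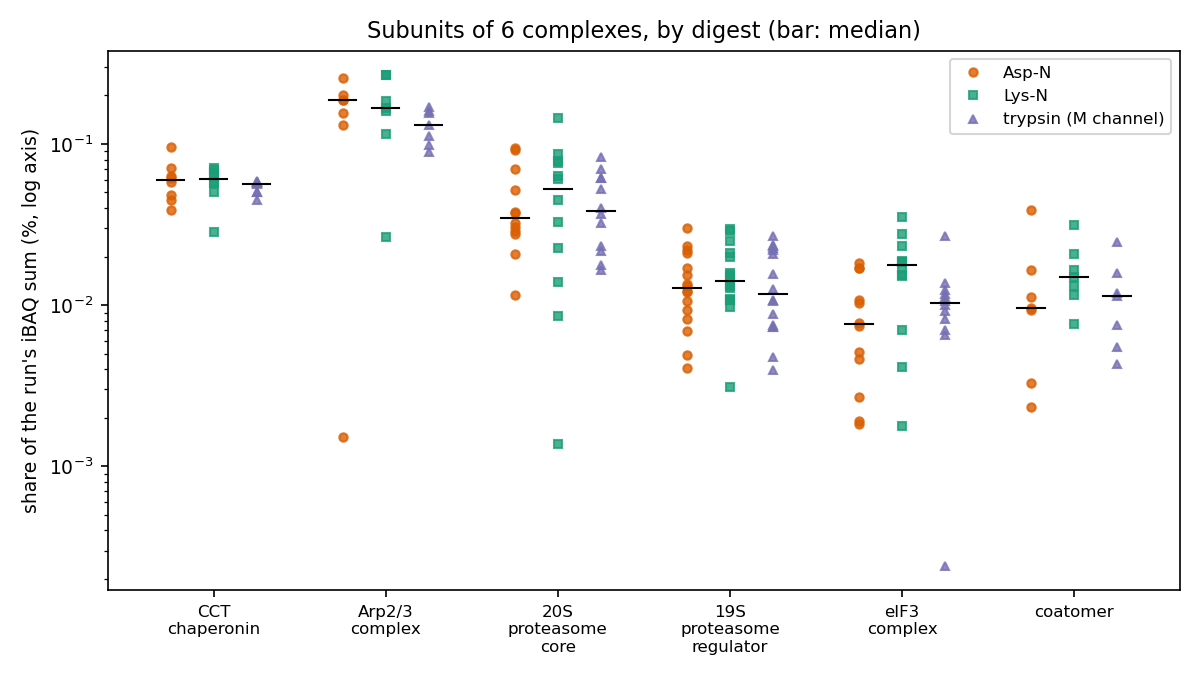
Share of the run's iBAQ sum (percent, log axis; geometric mean of 2 runs) of each subunit of 6 complexes by digest, with bars at the median. CCT subunits lie within 1.31 times of each other with trypsin, and Arpc4 is the single low Arp2/3 subunit with AspN.

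Across all 2220 proteins, 598 (26.9%) differed between LysN and AspN, 780 (35.1%) between trypsin and AspN and 851 (38.3%) between trypsin and LysN at adjusted p under 0.05. The trypsin comparisons also differ in label, culture and run type, and these cannot be told apart from the protease. LysN was higher for 384 and lower for 214, trypsin was higher than AspN for 250 and lower for 530, and trypsin was higher than LysN for 184 and lower for 667. This balance rested on the scaling: with each run centred on its median the higher and lower counts were 207 and 329, 373 and 346, and 447 and 296. At least 1 difference was called for 1271 proteins and none for 949, while 650 stayed within 2-fold in all 3 comparisons. Leaving out any 1 of the AspN or LysN runs lowered the count between LysN and AspN to 301 to 377. Leaving out any 1 AspN or trypsin run lowered that between trypsin and AspN to 473 to 501. Without LysN replicate 1 or trypsin replicate 2 the count between trypsin and LysN was 548 or 530. The call rate rose with abundance. Of the 444 proteins of lowest mean share 8.11% were called between LysN and AspN, and of the 444 of highest mean share 44.8%.

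**Figure D5:**
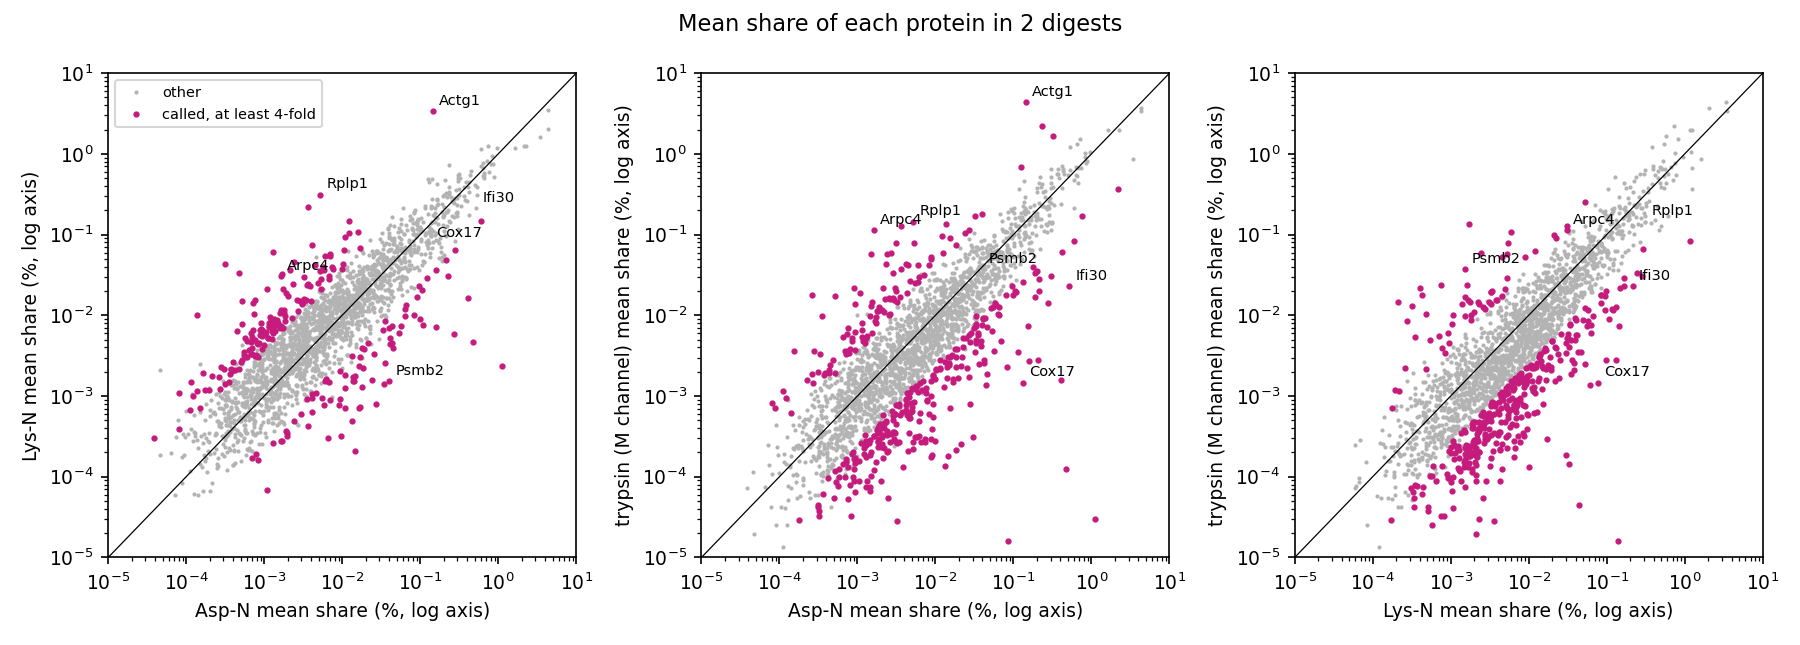
Mean share (percent, log axes) of the 2220 tested proteins in each pair of digests, with proteins called and at least 4-fold apart in colour and the line of equal shares. LysN against AspN has 142 such proteins above the line and 84 below, trypsin against AspN 106 and 259, and trypsin against LysN 58 and 329.

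Part of the largest differences were differences in grouping or in the contaminant mark. By the rule for named proteins, the 8 highest and 8 lowest differences of each comparison among the more abundant tested proteins gave 48 places held by 32 proteins. Groups linked by a shared accession or gene name were then summed, with marked mouse groups kept. In that setting 31 of the 48 places kept their direction and call. Actg1 lost its places there, where the marked Actb group of the AspN runs, at 4.68% of the kept sum, was counted again. Aldolase A illustrates the rest: its group led by accession A6ZI44 held 1.16% and 1.08% with AspN and at most 0.00244% in the other runs, but all its groups together held 1.06% ± 0.05 (SD, n = 2), 0.419% ± 0.031 and 1.06% ± 0.03. Esd, Ugp2, Lsp1, Cnbp, Dnm2 and Hnrnpa3 likewise lost or turned at least 1 of their differences once linked groups were summed. Tuba1a and Tuba1c, near copies of each other, went opposite ways singly, while all alpha tubulins held 0.463% ± 0.015, 0.529% ± 0.012 and 0.633% ± 0.032.

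Differences that kept their call with linked groups summed involved proteins of many functions. Cox17, the copper carrier for cytochrome c oxidase, held 0.144% and 0.119% with AspN, 0.0896% and 0.0668% with LysN and 0.000907% and 0.00203% with trypsin, which was lower than AspN with a log2 difference of -6.59 ± 0.39 (SE, adjusted p = 0.000114). Prdx4, the peroxiredoxin of the ER, held 0.0132% and 0.0140%, 0.000683% and 0.00271%, and 0.177% and 0.0963%. The splicing factor Mbnl1 was lowest with AspN, at 0.00312% and 0.00168% against 0.0471% and 0.0452% with LysN and 0.0610% and 0.0530% with trypsin. Serpinb2, a protease inhibitor of activated macrophages, was seen chiefly with trypsin, at 0.0196% and 0.0159% against at most 0.000549% in the other runs. The phosphatase Inpp5b was seen chiefly with LysN, at 0.0397% and 0.0478% against at most 0.000374%. Opa1 of the inner mitochondrial membrane, the nuclear pore protein Nup85 and the nuclear export receptor Cse1l were highest with trypsin, and the exosome subunit Exosc4 with LysN. Rpl24, the lipase Pla2g7 and Lsm4 were lowest with LysN, and Diablo and Ndufb7 with trypsin.

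Rank was compared by asking which of the 100 most abundant proteins of a digest fell outside the 500 most abundant of another, or had no value there. There were 60 such pairs, from 38 proteins, and in 42 of them the other digest had no value. With linked groups summed and marked mouse groups kept, 13 pairs from 9 proteins were left, and 47 of the 60 were no longer shifted. Keeping marked mouse groups without summing left 55 pairs. The 13 included Ifi30, Ppib, Wfdc17, Atp5e and Rplp1, and further H2bc14, H2bc3, Tuba1c and the gene model Gm6498, whose near copies make them uncertain. Wfdc17, a small secreted antiprotease of phagocytes with 76 residues, held 0.226% and 0.331% with AspN, 0.0827% and 0.0857% with LysN and 0.0219% and 0.00664% with trypsin, at ranks 66, 230 and 704. Gm6498 had a value with AspN alone, at 0.883% and 0.945%. Atp5e, at rank 505 with LysN, and Ifi30, at rank 512 with trypsin, lay close to the limit of 500. Of the 100 most abundant linked proteins, 60 were shared by all 3 digests, and of the top 20, 12 were.

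The number of possible peptides went with the size of these differences. The median tested protein had 13 possible peptides with AspN, 14 with LysN and 21 with trypsin. With AspN, 59 proteins with at most 2 possible peptides held 19.7% of the tested share, against 21 proteins and 4.96% with LysN and 4 proteins and 0.153% with trypsin. Tmsb4x and S100a9, with 2 each, were among the 59. So were Cox17, Diablo, Rpl24, Cox6a1 and Wfdc17, with 1 each. Between LysN and AspN, 27.3% of the 77 proteins with 1 or 2 possible peptides in the poorer digest lay 4-fold or more from the median difference, and 6.89% of the 479 proteins with 21 or more. The share called fell likewise from 49.4% to 17.1%, with a median replicate difference of 0.43 and 0.46 on the log2 scale. The median length in these sets was 119 and 996 residues, and length was not separated from possible peptides. Between trypsin and AspN the share called fell from 54.1% to 24.8%, and there the median replicate difference also fell, from 0.63 to 0.44. Across proteins the log2 difference between LysN and AspN correlated with the log2 ratio of possible peptides with r = -0.18 by iBAQ and 0.34 by summed intensity (n = 2220). It was -0.09 and 0.25 between trypsin and AspN, and -0.07 and 0.25 between trypsin and LysN, each a description over proteins that share runs and denominators.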

How the data were processed

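Protein from 6 samples (2 each of AspN, LysN and trypsin at 0 h) was measured by mass spectrometry. The authors deposited summed peptide intensity and iBAQ intensity per protein group and run, with MaxQuant column names per the file headers. No source used here gives the search version or settings. The submitters' processing notes list build mm9, and no coordinates were used. Groups marked Reverse, Contaminant or Only identified by site were dropped, leaving 3752 of 3839, 4049 of 4138 and 5899 of 6266. A further 167 iBAQ columns (other times, channels and sums) were not used. Symbols followed the RefSeq gene table: 6027 of the names were current, 485 synonyms, 50 kept from the file and 134 groups unnamed.

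Log2 shares of proteins with a value in all 6 runs were fitted with limma 3.58.1 in R 4.3.3 (lmFit, eBayes with trend, 1 fit of 3 digest means), with Benjamini-Hochberg adjustment over all 2220 proteins and calls at adjusted p under 0.05. No value was imputed. SDs are over 2 runs. The fit was tested on simulated data. Whether replicates came from separate cultures is not stated in the labels, and a p-value then covers only the spread of these samples, possibly a technical one. The number of peptides limits precision, and no counting interval was made. Named proteins were the 15 of highest mean share, the 10 highest of a digest, the 8 highest and lowest differences of a comparison, the 3 highest of each list, cell type markers and rank shifts; other members of the lists, and subunits of complexes, were named after their values were seen. Members, lists and complexes were chosen with earlier results of these data known. Alternatives covered scaling, intensity, filters, matching, the trend, the replicate block and each replicate left out. Keeping marked mouse groups, summing linked groups or paralogue families and a minimum of 5 possible peptides were added after seeing the data. Wherever linked groups were summed, marked mouse groups were kept as well.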

Additional observations from a re-analysis of the deposited data

Results flagged for a closer look

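Heavy signal appeared at 0 h, in a channel that the comparisons do not use, at 8.52% of the medium iBAQ sum in replicate 1 and 8.44% in replicate 2.

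Mouse proteins appeared in groups marked as contaminants, which the comparisons leave out. As a percent of the kept iBAQ sum, Actb stood at 4.68 and Pfn1 at 0.376 with AspN, Tmsb10 at 0.897, Pfn1 at 0.568 and Tuba1b at 0.494 with LysN, and Tuba1b at 0.600 with trypsin.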

How the results depend on the processing

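Among 90 named proteins, 4070 of 4380 differences under other settings kept their direction and side of the threshold, 209 lost their call, 62 gained one and 39 reversed; the cause was not tested. That count includes differences never called. Of the 55, 66 and 73 named calls between LysN and AspN, trypsin and AspN, and trypsin and LysN, 20, 44 and 45 held in every setting run, and 29, 16 and 23 were lost in at least 1. On the log2 scale, LysN minus AspN with linked groups summed became 0.54 for Dnm2 (G3X9G4), -0.95 for Cnbp (P53996), -0.42 for Actg1 (P63260), -3.64 for Tuba1a, 1.00 for Hnrnpa3 and 0.19 for Ugp2. Trypsin minus AspN became 1.73 for Esd (H3BKH6), 1.33 for Psmd4 (O35226-2), which was 1.25 when matched by gene name, -0.23 for Lsp1 (P19973), -1.31 for Cnbp, -0.057 for Actg1 and -4.39 for Tuba1a. Trypsin minus LysN became 1.34 for Aldoa (A6ZI44), 0.94 for Esd, -0.36 for Cnbp, -0.74 for Tuba1a, -1.82 for Hnrnpa3 and -0.11 for Ugp2. By summed intensity, LysN minus AspN became 0.63 for Cd74, -1.03 for Lyz2, -0.53 for Prdx1, -0.33 for Pkm, 0.72 for Rps15, 1.23 for Cox6a1 and 0.58 for Diablo. Trypsin minus AspN became -0.52 for Chil3, -0.64 for Lyz2, 0.83 for S100a9, -0.39 for Prdx1, -0.67 for S100a11 and -0.56 for Rac2, and trypsin minus LysN became 0.031 for S100a8. With runs centred on their medians, trypsin minus LysN became 0.60 for S100a10, 0.52 for Lyz2, 0.70 for Ctsd, 0.63 for Pdia3, 0.69 for Prdx1 and 0.021 for Rac2.

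Leaving out 1 replicate at a time gave 301 to 532 calls between LysN and AspN, 473 to 749 between trypsin and AspN and 530 to 826 between trypsin and LysN, where the lone sample is assumed to vary like the other groups. The 60 rank shifts became 13 with linked groups summed and marked mouse groups kept. They became 12 among proteins in all 6 runs. The replicate numbers did not pair the samples by the check made (correlations of deviations 0.124, 0.0105 and 0.0326), and the fit with the replicate block called 576, 754 and 845. With 2 runs a digest, the median SE of a difference was 0.43 on the log2 scale.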
